A study of Mus musculus with 2 samples.

Results

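The collagen genes of cultured preadipocytes were measured in single cells from the white fat of the groin (inguinal, iWAT) and the brown fat between the shoulder blades (interscapular, iBAT). A gene was taken as a collagen gene when its symbol consisted of Col, a number, the letter a and a further number, which selected 44 of the 27995 genes listed in both depots. Of these, 11 encode fibrillar collagens, 8 encode collagens of basement membranes, and 25 fall outside both groups. The stromal vascular fraction, the mixed non-adipocyte cells of a fat pad, was digested from pooled depots of wild-type C57BL/6N mice aged 8 to 12 weeks and grown to 80% confluency. Each depot gave 1 library in which untreated cells and cells given FGF1, FGF2 or FGF8 were pooled, with growth factor at 5.5 nM for 48 hours. The deposited counts carry no treatment for a cell, so every value below is a mixture of the 4 treatments, and with 1 library per depot no difference has a replicate check or a test.

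Collagens are secreted proteins built from 3 chains that wind around each other, and a chain can only wind where glycine recurs at each turn of the repeat, as 1 residue in 3. Fibrillar collagens such as type I and type III form the tension-bearing fibres of connective tissue, with type V chains inside the fibrils, and fibroblast-like cells are their main source. Basement membrane collagens, type IV above all, form sheets under epithelia and around adipocytes, vessels, nerve and muscle fibres. The remaining types sit on fibril surfaces, form beaded filaments or networks, anchor epithelia or span the plasma membrane.

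The groups differ in the structure of their genes. An exon each of Col1a1, of Col2a1 and of Col4a1 is shown to set the unbroken glycine repeat of a fibrillar chain beside the interrupted repeat of a type IV chain. Capitals mark glycine codons, read in frame from the mouse GRCm39 genome with the GENCODE M39 annotation, and all 3 are internal coding exons given 5′ to 3′ on the gene's own strand. Col1a1 exon 8 lies at chr11:94830730-94830783 on the plus strand, Col2a1 exon 10 at chr15:97894370-97894423 on the minus strand, and Col4a1 exon 9 at chr8:11294486-11294569 on the minus strand.
Col1a1: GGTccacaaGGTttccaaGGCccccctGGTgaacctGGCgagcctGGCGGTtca
Col2a1: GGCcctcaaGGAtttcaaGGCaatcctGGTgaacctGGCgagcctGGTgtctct
Col4a1: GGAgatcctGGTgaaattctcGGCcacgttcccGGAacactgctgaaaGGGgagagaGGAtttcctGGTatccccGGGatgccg
In the exons of Col1a1 and Col2a1, both 54 bases long, each triplet of codons began with a glycine codon throughout. The Col4a1 exon of 84 bases held 8 glycine codons with irregular spacing. Over whole coding sequences, the longest unbroken run of glycine triplets was 216 to 344 triplets in the 11 fibrillar genes (median 338), 30 to 66 in the 8 basement membrane genes (median 41) and 23 to 113 in the 25 other genes (median 52). Exons of exactly 54 bases numbered 21 to 33 per fibrillar gene, 1 to 3 per basement membrane gene and 0 to 28 per other gene.

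Cells with over 200 and under 7500 detected genes and under 30% mitochondrial molecules were kept, 29744 of 29962 barcodes in iWAT and 28215 of 28636 in iBAT. The median kept cell held 16204 unique molecular identifiers (UMIs) in iWAT and 27235 in iBAT, and the libraries shared 8 barcode numbers. Levels are counts of UMIs per 1000000 UMIs of the named cells (CPM), also where a figure's axis spells the unit out. A UMI counts a captured mRNA molecule once and is not divided by gene length, although capture can differ between genes. Intervals are exact 95% intervals (Poisson for levels, Clopper-Pearson for shares, conditional on the summed count for ratios) and cover counting error only. Among the 22 collagen genes with a mean of at least 10 CPM, the bounds of the log2 ratio between depots lay within 0.057 of the ratio, so such bounds are given only where counts were small. The libraries also differed in sex-linked transcripts, with Xist at 345 CPM in iWAT and 0.0505 in iBAT and Ddx3y at 1.20 and 81.9, so depot and this difference cannot be told apart. A depot difference over all cells can come from the mixture of cells as well as from the level in 1 kind of cell.

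Fibrillar collagen mRNA was 27155 CPM in iWAT and 13057 in iBAT, a log2 ratio of iBAT over iWAT of -1.06. It made up 2.72% of all captured molecules in iWAT and 1.31% in iBAT. Basement membrane collagens stood at 1617 CPM in iWAT and 1586 in iBAT, a log2 ratio of -0.03 (95% interval -0.03 to -0.02). The other collagens summed to 1319 and 1339 CPM, a log2 ratio of 0.02. The depots thus differed in the fibrillar sum and were nearly level in the remaining sums, and fibrillar genes held 90.2% of collagen UMIs in iWAT and 81.7% in iBAT. Basement membrane genes held 5.38% and 9.92% of collagen UMIs, and the other genes 4.38% and 8.38%.

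**Figure D1:**
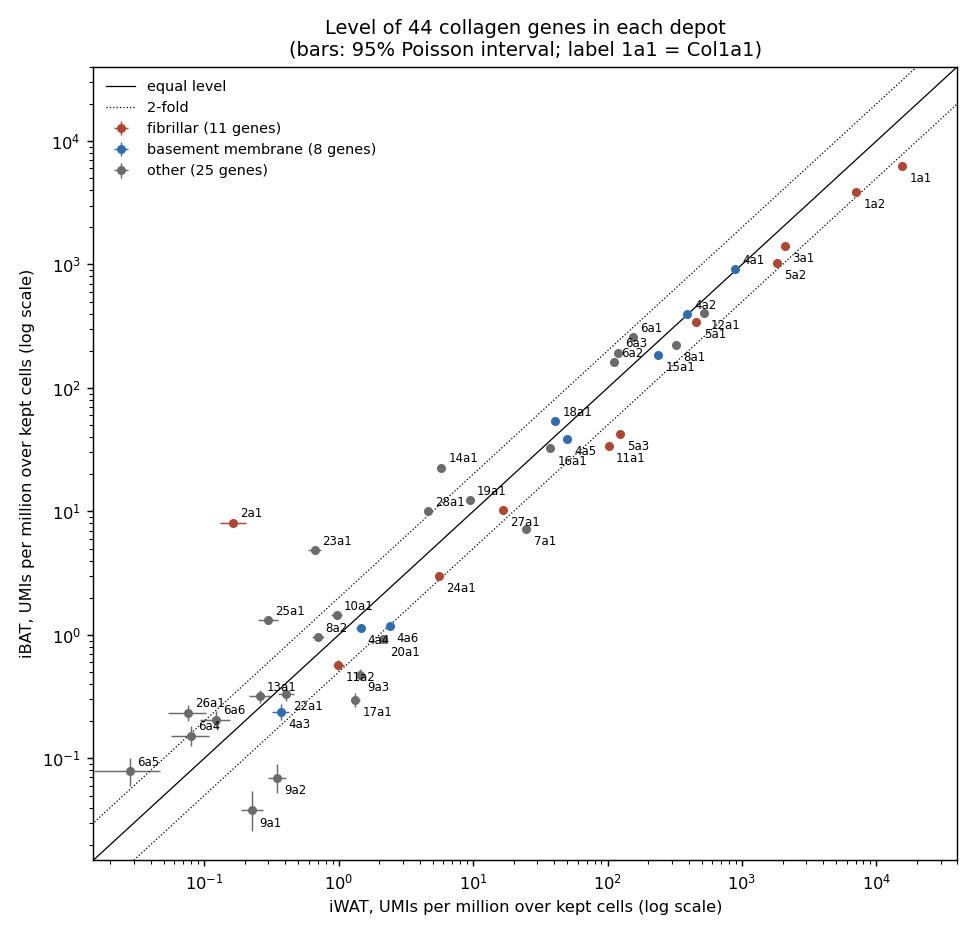
Level of the collagen genes in the iWAT library (horizontal) against the iBAT library (vertical) over all kept cells, in CPM on log axes, coloured by group. Each point is a gene. Col1a1 sat highest at 15475 in iWAT and 6314 in iBAT, and Col2a1 had the widest gap, at 0.163 and 8.11.

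Type I collagen, the main fibre of connective tissue, is a trimer of chains encoded by Col1a1 and Col1a2. Col1a1 (chr11:94827050-94843868, plus strand) was at 15475 CPM in iWAT and 6314 in iBAT, a log2 ratio of -1.29, and was the highest collagen gene in both. Col1a2 (chr6:4504814-4541555, plus strand) was at 7084 and 3855, a log2 ratio of -0.88. Col3a1, whose homotrimer co-assembles with type I collagen in soft tissue, was at 2082 and 1423, a log2 ratio of -0.55. All of these were lower in the iBAT library, and their ratios differed from each other by more than the counting intervals.

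Type V and type XI chains lie within the fibrils and set their start and width. Col5a2 was at 1805 CPM in iWAT and 1025 in iBAT (log2 ratio -0.82), and Col5a1 at 458 and 341 (-0.42). Col5a3 was at 125 and 42.2 (-1.56), and Col11a1 at 102 and 33.8 (-1.60). The minor chains Col5a3 and Col11a1 therefore had the lowest ratios among fibrillar genes, below that of Col1a1. Col27a1, a fibrillar collagen of cartilage, was at 16.5 and 10.2 (-0.69), and Col24a1 at 5.58 and 2.99 (-0.90, 95% interval -0.98 to -0.82). Of the 10 fibrillar genes with a mean of at least 1 CPM, 9 had a lower level in iBAT. The exception was Col2a1, the fibrillar collagen of cartilage, at 0.163 CPM in iWAT (82 UMIs) and 8.11 in iBAT (6422 UMIs), a log2 ratio of 5.63 (95% interval 5.32 to 5.97). Col11a2 fell under that mean, at 0.996 in iWAT and 0.575 in iBAT.

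Type IV collagen of most basement membranes is a trimer of 2 chains encoded by Col4a1 and 1 encoded by Col4a2. Col4a1 was at 892 CPM in iWAT and 911 in iBAT (log2 ratio 0.03), and Col4a2 at 391 and 396 (0.02). These neighbours lie head to head, Col4a1 at chr8:11248423-11362826 on the minus strand and Col4a2 at chr8:11362471-11499287 on the plus strand, and had the closest levels between depots of any collagen gene above 10 CPM. Their start regions are shown because they share sequence, beside those of Col1a2 and Col3a1, the highest fibrillar genes with a window in the promoter table, in no head-to-head pair. The windows run from 250 bases before to 50 after the RefSeq start on the GRCm38.p6 build, given 5′ to 3′ on the gene's strand. Capitals mark the TATA box TATAAA, the CCAAT box, and the GC box GGGCGG on either strand, and no match overlapped another. Col4a1 is at chr8:11312777-11313076 (minus), Col4a2 at chr8:11312555-11312854 (plus), Col1a2 at chr6:4505368-4505667 (plus) and Col3a1 at chr1:45311288-45311587 (plus).
Col4a1: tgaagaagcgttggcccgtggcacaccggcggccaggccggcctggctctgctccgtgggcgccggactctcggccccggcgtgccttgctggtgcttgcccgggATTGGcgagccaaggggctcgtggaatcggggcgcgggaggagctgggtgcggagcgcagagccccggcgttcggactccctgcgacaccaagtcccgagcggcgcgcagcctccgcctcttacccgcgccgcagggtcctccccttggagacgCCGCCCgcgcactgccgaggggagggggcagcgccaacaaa
Col4a2: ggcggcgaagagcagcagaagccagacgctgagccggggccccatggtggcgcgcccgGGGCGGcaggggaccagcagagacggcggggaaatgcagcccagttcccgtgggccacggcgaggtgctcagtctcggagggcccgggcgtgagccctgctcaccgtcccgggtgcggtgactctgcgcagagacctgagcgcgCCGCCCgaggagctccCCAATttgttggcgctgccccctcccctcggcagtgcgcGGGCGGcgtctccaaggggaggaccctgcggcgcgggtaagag
Col1a2: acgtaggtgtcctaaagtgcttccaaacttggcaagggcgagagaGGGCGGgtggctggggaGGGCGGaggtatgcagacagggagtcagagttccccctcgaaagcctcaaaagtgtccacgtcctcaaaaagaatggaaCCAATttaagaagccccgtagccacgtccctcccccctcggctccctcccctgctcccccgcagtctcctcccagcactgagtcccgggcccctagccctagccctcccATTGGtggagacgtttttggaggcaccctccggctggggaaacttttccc
Col3a1: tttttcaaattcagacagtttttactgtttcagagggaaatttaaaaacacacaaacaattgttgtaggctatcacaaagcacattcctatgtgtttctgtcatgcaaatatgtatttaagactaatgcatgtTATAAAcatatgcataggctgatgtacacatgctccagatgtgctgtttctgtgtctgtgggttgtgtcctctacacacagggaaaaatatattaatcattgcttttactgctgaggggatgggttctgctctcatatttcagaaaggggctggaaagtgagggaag
The RefSeq start sites of Col4a1 and Col4a2 were 21 bases apart, and their windows shared 78 bases. The gene coordinates given above, from GENCODE M39 on GRCm39, place the starts farther apart, with the 2 genes overlapping. Their windows were 74% and 73.67% G or C, against a median of 52.67% over all 32851 windows of the table. A match to GGGCGG was found in 35.66% of all windows, to CCAAT in 37.41% and to TATAAA in 13.62%. Of the 38 windows found for 35 collagen genes, 60.53% held GGGCGG, 34.21% held CCAAT and 13.16% held TATAAA. These are matches of letters, and no binding was measured.

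The remaining type IV chains were lower. Col4a5 was at 50.1 CPM in iWAT and 38.7 in iBAT (log2 ratio -0.37), and Col4a6, its head-to-head neighbour on the X chromosome, at 2.39 and 1.18 (-1.02, 95% interval -1.14 to -0.89). Col4a4 was at 1.45 and 1.14, and Col4a3 at 0.371 and 0.239. Col15a1 and Col18a1 encode proteoglycan collagens at the outer and inner face of basement membranes, and the C-terminal piece of the latter is endostatin. Col15a1 was at 239 and 184 (log2 ratio -0.37), and Col18a1 at 40.7 and 53.7 (0.40). The group sum, nearly level between depots, thus held members that were higher and members that were lower in iBAT.

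Among the other collagens, the beaded filament chains of type VI, which link cells to the surrounding matrix, were higher in iBAT. Col6a1 was at 155 CPM in iWAT and 257 in iBAT (log2 ratio 0.73), Col6a3 at 120 and 193 (0.69), and Col6a2 at 112 and 161 (0.53). The 6 type VI genes summed to 386 in iWAT and 612 in iBAT, a log2 ratio of 0.66, and Col6a4, Col6a5 and Col6a6 were each under 1 CPM. The 3 chains of the classical type VI trimer were higher by similar amounts, and Col6a1 UMIs were 1.29 times those of Col6a3 in iWAT and 1.33 times in iBAT.

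FACIT collagens, which decorate fibril surfaces and have interrupted helices, summed to 578 CPM in iWAT and 476 in iBAT (log2 ratio -0.28). Col12a1 made up most of this, at 520 and 407 (-0.35), and Col16a1 was at 37.4 and 32.3 (-0.21). Col14a1 went the other way, at 5.82 and 22.5 (log2 ratio 1.95, 95% interval 1.90 to 2.01), as did Col19a1 at 9.40 and 12.3 (0.39). Col20a1 was at 2.13 and 0.921 (-1.21, 95% interval -1.35 to -1.07). Col12a1 and Col14a1, related surface collagens, therefore had opposite signs.

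Network-forming collagens were lower in iBAT, at 323 and 226 CPM in sum (log2 ratio -0.51). Nearly all of this was Col8a1, a short-chain collagen, at 321 and 224 (-0.52). Col10a1, best known from hypertrophic cartilage, was at 0.967 and 1.44 and rested on a few cells: 5 iWAT cells with 10 or more Col10a1 UMIs held 43.3% of its UMIs, and 11 iBAT cells held 33.5%. Col7a1, which forms the anchoring fibrils of epithelia, was at 24.9 and 7.26 (log2 ratio -1.78, 95% interval -1.82 to -1.73), the lowest ratio of any member with a mean of at least 1. Col23a1, a transmembrane collagen, was at 0.664 and 4.83 (2.86, 95% interval 2.70 to 3.03). Col28a1, a collagen known from peripheral nerve, was at 4.60 and 10.1 (1.13, 95% interval 1.06 to 1.20).

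**Figure D2:**
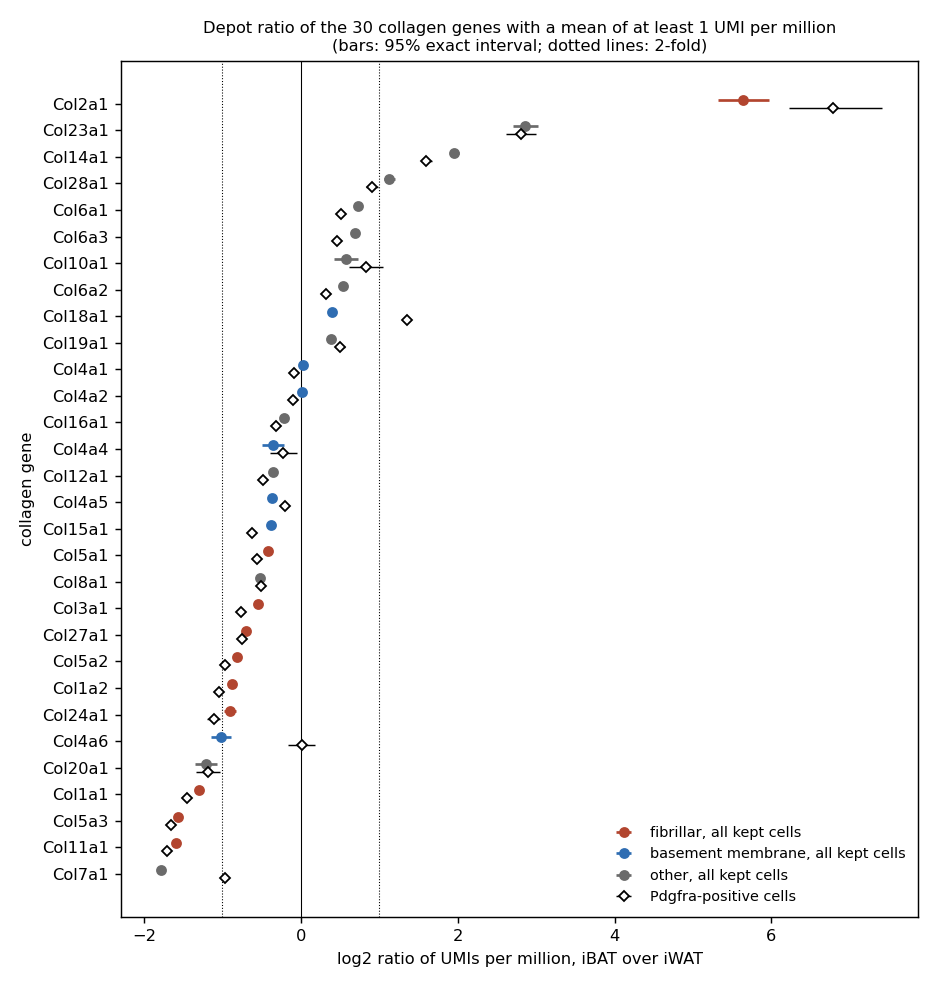
Log2 ratio of iBAT over iWAT for the collagen genes, over all kept cells and within Pdgfra-positive cells, with exact 95% counting intervals as bars. Col2a1 lay farthest to the iBAT side at 5.63 over all kept cells and 6.78 within Pdgfra-positive cells, and Col4a1 and Col4a2 lay near 0.

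Across the 30 collagen genes with a mean of at least 1 CPM, 4 were higher in iBAT by 2-fold or more, against 5.82% of the 13533 genes of that mean, and 6 were higher in iWAT, against 6.88%. The former were Col2a1, Col23a1, Col14a1 and Col28a1, and the latter Col1a1, Col5a3, Col11a1, Col4a6, Col7a1 and Col20a1. The share of collagen genes was thus 13.3% in the first direction and 20% in the second. Col2a1 and Col23a1 were under 1 CPM in iWAT and passed the mean only through their iBAT level. The filter thus favoured their call, as it did for such genes among all genes. Their median log2 ratio was -0.36, against 0.05 over all those genes. The 14 collagen genes under a mean of 1 ranged from 0.0531 to 0.961 CPM, and none was at 0 in either library. Of all 44, 6 had another annotated gene over their last 1000 exonic bases (Col4a3, Col6a6, Col7a1, Col9a3, Col10a1 and Col20a1), and whether counting used the strand is not given in the sources used here.

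Most cells of both depots held Pdgfra mRNA, the receptor that marks fibroblast-like preadipocytes, namely 17460 iWAT cells and 25927 iBAT cells. Within them fibrillar collagens were at 30198 CPM in iWAT and 12981 in iBAT, a log2 ratio of -1.22. Basement membrane collagens were at 1713 and 1546 (-0.15), and type VI collagens at 446 and 605 (0.44). The fibrillar gap between depots was therefore no smaller in these cells than over all cells, while the type VI gap was smaller.

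Col1a1 was at 17098 CPM in Pdgfra-positive iWAT cells and 6242 in those of iBAT, and Col1a2 at 7906 and 3849, with log2 ratios of -1.45 and -1.04. Col11a1 was at 110 and 33.7 (-1.70), and Col5a3 at 127 and 40.3 (-1.65). Some ratios of the whole libraries changed in these cells. Col4a6 was at 1.19 and 1.20, a log2 ratio of 0.01, and Col7a1 at 14.1 and 7.21, a ratio of -0.97. For Col7a1 the iWAT level was that of the comparison cells described next (13.7, against 0.703 in iBAT), so its ratio in these cells is not read as a difference. For Col4a6 the comparison cells held 3 UMIs in iWAT and 1 in iBAT, too few to place its levels above background. Col18a1 was at 10.3 and 26.2, a log2 ratio of 1.36 where all cells gave 0.40. Without cells that held another class marker as well, Col18a1 was at 4.17 in iWAT and 13.2 in iBAT, and comparison cells with the leukocyte gene Ptprc and no class marker gave 1.61 and 17.2, so its iBAT level in Pdgfra-positive cells is not read as expression. The cause of these shifts was not tested. Of the 29 members with a mean of at least 1 in Pdgfra-positive cells, 4 were higher in iBAT by 2-fold or more, against 5.64% of 13360 genes, and 6 were lower, against 5.98%. The 4 were Col2a1, Col23a1, Col14a1 and Col18a1, and the count of 4 thus includes Col18a1 although its iBAT level is not read as expression. Col2a1 and Col23a1 were again under 1 CPM in iWAT and entered only through iBAT. The 6 were Col1a1, Col1a2, Col5a3, Col11a1, Col24a1 and Col20a1, of which 5 are fibrillar.

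The spread from cell to cell was described after thinning each cell to 10000 UMIs, which left out 1789 shallower Pdgfra-positive cells of iWAT and 0 of iBAT. Col1a1 was detected in 99.99% of iWAT and 99.85% of iBAT cells, with a median of 162 UMIs per cell (10th to 90th percentile 64 to 298) and of 45 (13 to 157). Col4a1 was detected in 98.1% and 90.3%, with medians of 8 UMIs (3 to 17) and 7 (1 to 21). As a measure of stray RNA, cells with the leukocyte gene Ptprc and no class marker, too few in number (64 and 127 after thinning) to be more than a guide, held Col1a1 in 96.9% and 90.6%, with medians of 7 and 3 UMIs, and Col4a1 in 46.9% and 37.0%, with medians of 0. The detection of Col1a1 therefore does not tell these cells apart, and its amounts per cell are the values to compare. Col5a3 was detected in 56.8% of iWAT and 22.4% of iBAT cells (70.4% and 38.0% without thinning), and Col11a1 in 54.2% and 23.3% (68.0% and 41.6%). The same Ptprc-positive cells gave 15.6% and 3.15% for Col5a3 and 20.3% and 3.94% for Col11a1. Col14a1 was detected in 5.20% of iWAT cells (8.18% without thinning), and 22.5% of iBAT cells held it without thinning. The shares without thinning are at unlike depth, with medians of 18119 UMIs in iWAT and 27838 in iBAT Pdgfra-positive cells. In the Ptprc-positive cells Col14a1 reached 26.6% in iWAT after thinning and 9.45% in iBAT without thinning, at levels of 42.6 and 6.68 CPM. Since the iWAT comparison cells held more Col14a1 than the Pdgfra-positive cells, they give no background for this gene in iWAT.

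The ratio between chains that assemble with each other differed between the depots for type I, type V and type VI, and was close for Col4a1 over Col4a2 of type IV. For the type IV pair Col4a5 over Col4a6 it was 20.9 (95% interval 19.8 to 22.2) in iWAT and 32.8 (30.7 to 35.0) in iBAT over all kept cells, but within Pdgfra-positive cells it was 38.0 (34.4 to 42.2) in iWAT and 32.8 (30.7 to 35.1) in iBAT, with the order turned and overlapping intervals. In Pdgfra-positive cells Col4a6 was not placed above background, so its ratio there is given as a value only. Col1a1 UMIs were 2.18 times those of Col1a2 in iWAT and 1.64 times in iBAT. For Col4a1 over Col4a2 the ratio was 2.28 and 2.30, nearly the same in both depots. Col5a1 over Col5a2 was 0.254 and 0.333, and Col6a1 over Col6a2 1.39 and 1.59. Col1a1 over Col4a1, fibre over sheet, was 17.3 in iWAT and 6.93 in iBAT.

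Across single Pdgfra-positive cells (15671 of iWAT and 25927 of iBAT, thinned to 10000 UMIs, log scale), the highest correlation in both depots was that of the type I chains. Pearson's r of Col1a1 with Col1a2 was 0.91 in iWAT and 0.84 in iBAT, and that of Col1a1 with Col3a1 0.74 and 0.72. For Col4a1 with Col4a2, r was 0.60 and 0.77, and for Col6a1 with Col6a2 0.54 and 0.63. Over all 231 pairs of the 22 higher genes, the median r was 0.07 and 0.11. For Col1a1 with Col4a1, of different groups, r was 0.39 and 0.25. Some pairs had r of opposite sign in the depots, with Col4a1 and Col8a1 at 0.13 and -0.24. Col1a1 and Col18a1 were at -0.29 and 0.12, but Col18a1 in these iBAT cells is not read as expression, so this pair gives no contrast of depots. Cells that also held another class marker were included, and their part in the values was not tested. All cells of a depot came from 1 library and mixed 4 treatments, so these values describe the libraries only.

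**Figure D3:**
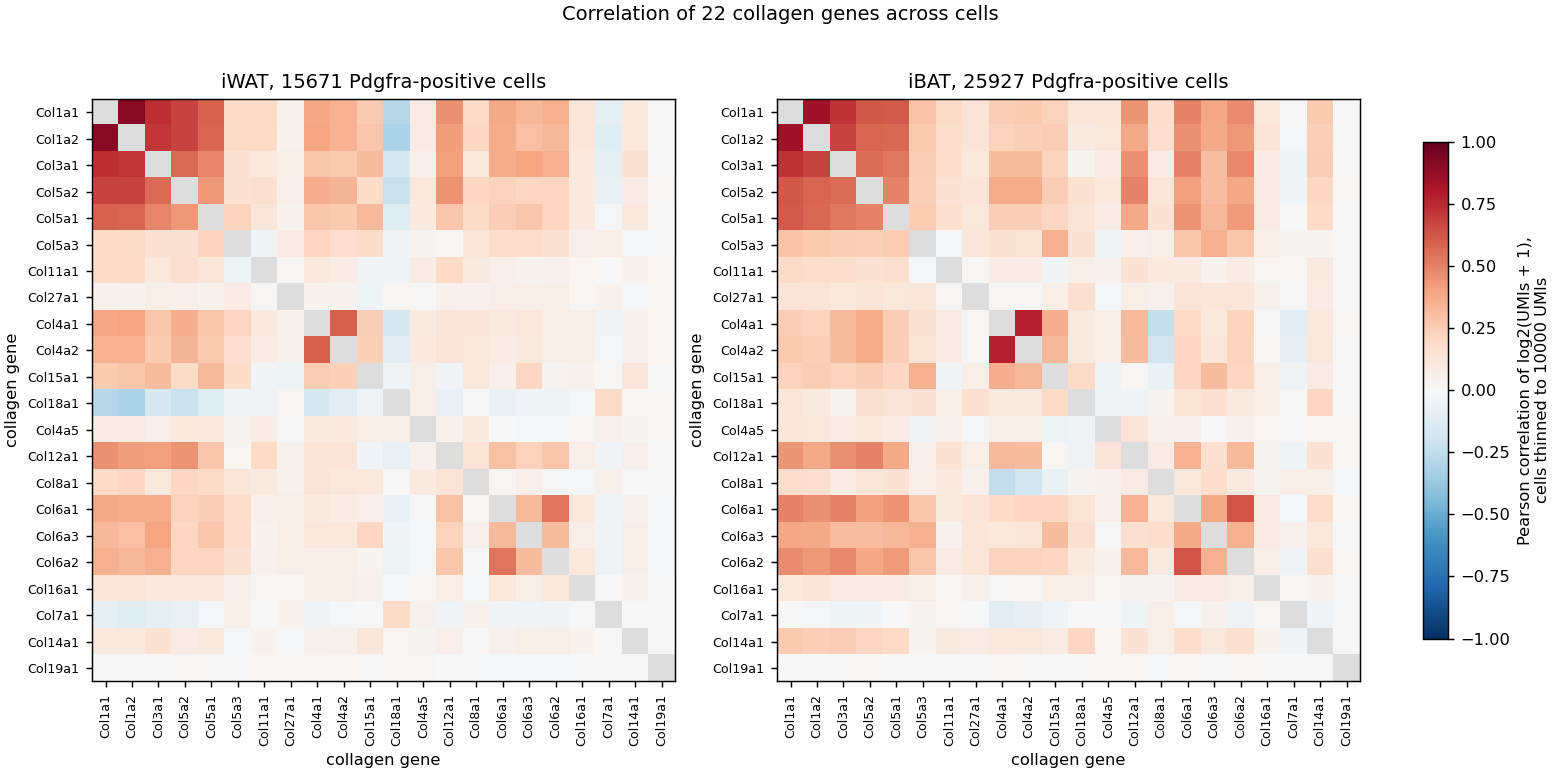
Pearson correlation across Pdgfra-positive cells thinned to 10000 UMIs for the 22 collagen genes with a mean of at least 10 CPM, iWAT and iBAT side by side. The block of type I and type III genes stands out in both, with Col1a1 and Col1a2 at 0.91 and 0.84.

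Collagens were then compared between kinds of cells within a library, using cells with at least 1 UMI of a class marker. Since a single UMI can come from stray RNA or a second cell in the well, cells with none of the other class markers (single-positive cells) were set beside them, and no doublet caller was run. Epcam, an epithelial adhesion molecule, was found in 6333 iWAT cells and 111 iBAT cells. Sox10, a transcription factor of Schwann cells and some glandular epithelia, was found in 2887 and 1138, the endothelial gene Pecam1 in 364 and 947, and the myogenic factor Myod1 in 4 and 368. In the Ptprc-positive comparison cells (103 in iWAT, 127 in iBAT) all collagens summed to 5512 and 2466 CPM, with Col1a1 over Col1a2 at 2.14 and 1.54, close to 2.16 and 1.62 in Pdgfra-positive cells of the same library. Fibrillar levels at or below those of the comparison cells are therefore given as values and not read as expression.

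**Figure D4:**
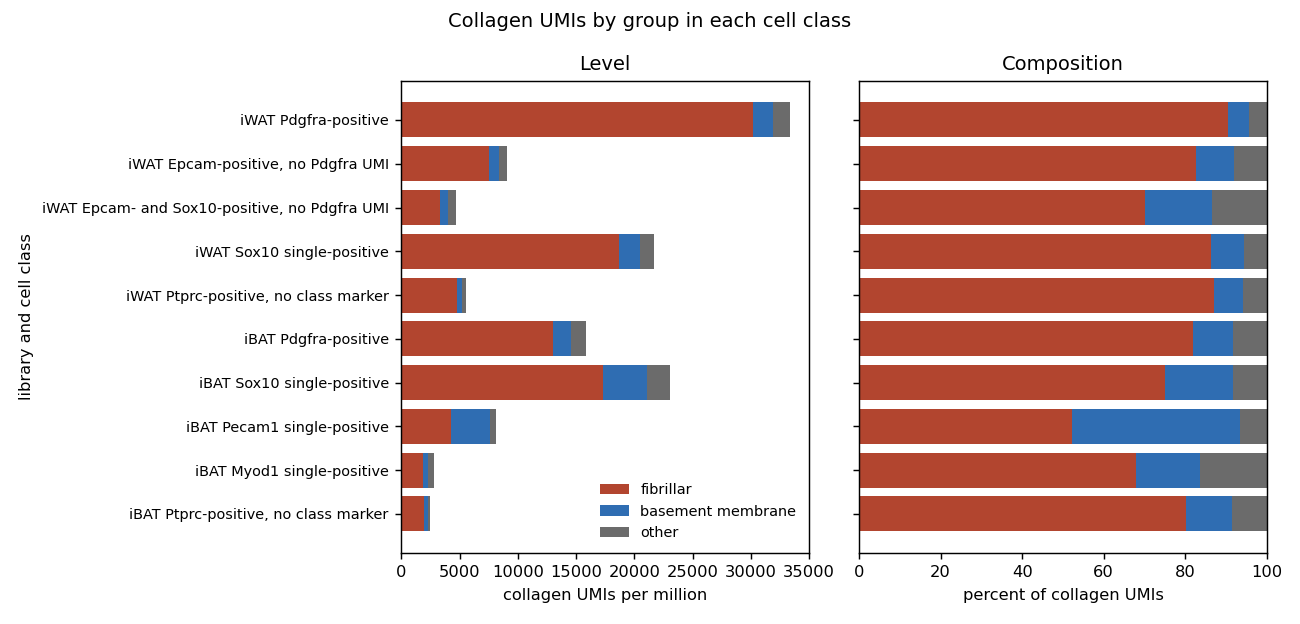
Fibrillar, basement membrane and other collagen genes by kind of cell in both libraries, as level in CPM (left) and as percent of collagen UMIs (right). Fibrillar genes held 52.2% in iBAT Pecam1 single-positive cells, where basement membrane genes held 41.3%. The part of stray RNA in these shares was not tested. Over all kept cells, which are not drawn, fibrillar genes held 90.2% in iWAT and 81.7% in iBAT.

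In iWAT, 4523 Epcam-positive cells held no Pdgfra UMI, and 8 of 8 epithelial markers were raised at least 3-fold in them over all kept cells (summed 3517 against 479 CPM). Here and below, the marker list of a class includes the gene that selected its cells, whose own rise is fixed by that choice. Their collagens summed to 9065 CPM against 33336 in Pdgfra-positive cells, and fibrillar genes made up 82.6% of it, basement membrane genes 9.46% and other genes 7.97%. Of 32 collagen genes with enough counts, 7 were higher by 2-fold or more than in Pdgfra-positive cells, against 10.9% of 13474 genes, and 17 were lower, against 11.1%. The lower genes included 8 of the 10 fibrillar genes. Members under 1 CPM in Pdgfra-positive cells, such as Col17a1 and Col9a2, entered only through these Epcam-positive cells. The filter thus favoured their call, as it did for such genes among all genes. Col1a1 was at 4243 in these cells and 17098 in Pdgfra-positive cells, 4.03-fold lower, with 2644 in the comparison cells. Col1a2 was at 1872 and Col3a1 at 490 in the same cells.

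Of the 7 basement membrane genes with enough counts, 2 were higher and 3 lower in these Epcam-positive cells. Col4a1 was lower, at 311 CPM against 959, as were Col4a2, at 139 against 422, and Col15a1. The iWAT comparison cells held 145 Col4a2 UMIs among 1243513, near the level of the Epcam-positive cells, so Col4a2 is given as a value only. Col18a1 was at 253 CPM against 10.3 in Pdgfra-positive cells, 24.6-fold higher (95% interval 23.7 to 25.6), and against 1.61 in the comparison cells. These cells held 69.9% of all Col18a1 UMIs of the iWAT library. Col17a1, which encodes the transmembrane collagen of hemidesmosomes, was at 8.43 against 0.273 (30.9-fold, 24.6 to 39.2). Col7a1 was at 100 against 14.1 (7.10-fold, 6.83 to 7.38). The comparison cells held 13.7 of Col7a1, near the Pdgfra-positive level, so this is a fold over background. Col4a6 was at 11.3 against 1.19 (9.48-fold, 8.35 to 10.8), while its neighbour Col4a5 was at 81.2 against 45.5 (1.79-fold). The comparison cells held 3 Col4a6 UMIs among 1243513, so its Pdgfra-positive level is not above theirs and this too is a fold over background. Col9a2, a cartilage FACIT chain, was at 2.44 against 0.0797 (30.7-fold, 20.1 to 48.6). After thinning, Col18a1 was detected in 67.7% of these cells (68.6% without thinning, 1781 shallower cells left out) and in 5.86% of Pdgfra-positive cells, against 0% of 64 comparison cells, which allows a share of up to 5.60%.

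Over all 6333 Epcam-positive iWAT cells, of which 1810 also held Pdgfra, Col18a1 was at 180, Col17a1 at 5.77 and Col9a2 at 1.71 CPM, and the highest members were Col1a1 at 7656, then Col1a2 and Col3a1. Of 2887 Sox10-positive iWAT cells, 2419 also held Epcam, and 8 of 8 epithelial but 3 of 8 Schwann markers were raised at least 3-fold. They are therefore described with the epithelial cells. Col18a1 was at 316 in all Sox10-positive cells, Col17a1 at 9.79 and Col9a2 at 3.48. In cells positive for both Epcam and Sox10 with no Pdgfra UMI (2067 cells) fibrillar genes summed to 3270 CPM, below the 4793 of the comparison cells, and Col1a1 was at 1758. Col18a1 was at 367 in them. The 242 Sox10 single-positive iWAT cells, with 7 of 8 Schwann and 2 of 8 epithelial markers raised, held Col18a1 at 489, Col17a1 at 19.2 and Col28a1 at 28.7, which is 5.65-fold the Pdgfra-positive level of Col28a1. Their fibrillar sum of 18709 was closer to that of Pdgfra-positive cells.

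**Figure D5:**
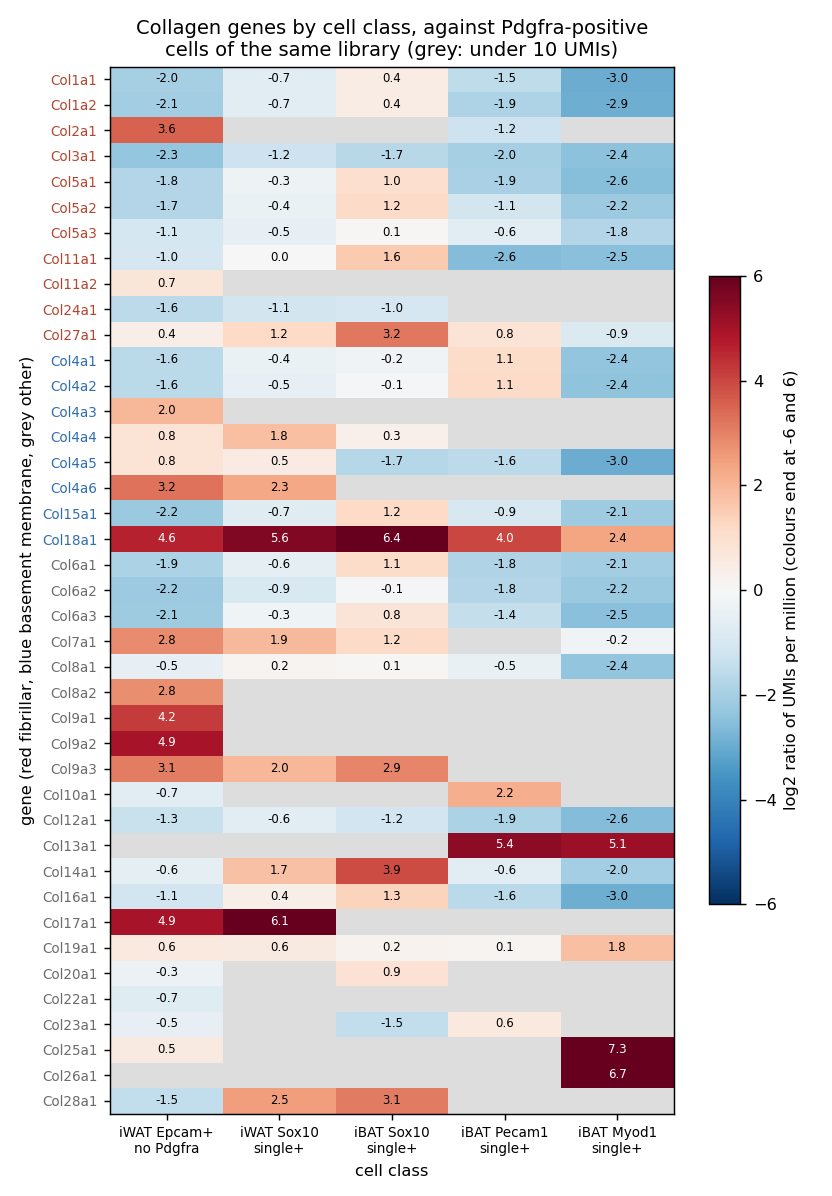
Log2 ratio of each named collagen gene in a kind of cell over Pdgfra-positive cells of the same library, one column per kind of cell. Col18a1 was above the Pdgfra-positive level in the Epcam, Sox10, Pecam1 and Myod1 columns (in iBAT that level was near the one of the comparison cells), Col25a1 stood out in Myod1 cells of iBAT, and Col1a1 was lower in Epcam, Pecam1 and Myod1 cells.

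In iBAT the Sox10-positive cells as a whole had 6 of 8 Schwann and 0 of 8 epithelial markers raised at least 3-fold, unlike those of iWAT. In 512 single-positive cells 7 of 8 Schwann markers were raised at least 3-fold (summed 1654 against 38.8 CPM), the same number as in iWAT single-positive cells. All 8 epithelial markers were at 0 in them. This tells little, since Epcam was at 0 by selection and the 8 summed to 0.559 CPM over all kept iBAT cells. The collagens of the 512 cells summed to 23049 CPM, above the 15862 of Pdgfra-positive cells, and basement membrane genes made up 16.6% of it. Col18a1 was at 2249 (95% interval 2217 to 2281), against 26.2 in Pdgfra-positive cells and 17.2 in the Ptprc-positive cells. No fold is given for Col18a1 in iBAT, since the Pdgfra-positive level is near that of the comparison cells. These 512 cells held 44.5% of the Col18a1 UMIs of the iBAT library, and Col18a1 was detected in 97.3% of them after thinning (97.7% without), in 11.1% of Pdgfra-positive cells and in 11.0% of the Ptprc-positive cells. The iBAT Pdgfra-positive share of Col18a1 is therefore read as background.

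Col14a1 was at 290 CPM against 19.4 in iBAT Pdgfra-positive cells, and Col27a1 at 83.1 against 9.31 (8.93-fold). Col28a1 was at 82.8 against 9.49 (8.72-fold), and the low Col9a3 at 3.45 (7.73-fold). Fibrillar chains were also raised in part, with Col5a2 at 2262 against 1015, Col5a1 at 685 against 337 and Col11a1 at 100 against 33.7, whereas Col1a1 at 8418 against 6242 was 1.35-fold higher. Col3a1 was 3.15-fold lower, at 458 against 1442, so that Col1a1 over Col3a1 was 18.4 where Pdgfra-positive cells had 4.33. The type VI chains differed from each other, with Col6a1 higher, at 546 against 254, and Col6a2 at 154 against 161. Col4a1 was at 795 against 906. Of 30 collagen genes with enough counts, 12 were higher by 2-fold or more, against 9.61% of 13191 genes, and 5 were lower, against 14.4%. Members under 1 CPM in Pdgfra-positive cells, such as Col9a3, entered only through the Sox10 cells, which favoured their call. In all 1138 Sox10-positive iBAT cells, 613 of which held Pdgfra, Col18a1 was at 1126, Col14a1 at 159 and Col9a3 at 2.33, with Col1a1 at 7207, Col1a2 at 4472 and Col5a2 at 1586 as the highest members.

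The 146 Pecam1 single-positive iBAT cells had 8 of 8 endothelial markers raised at least 3-fold (summed 4857 against 41.3 CPM). Of the leukocyte list 6 of 8 were raised too (790 against 152), and the part of such cells in the collagen values was not tested. Basement membrane collagens were at 3348 CPM against 1546 in Pdgfra-positive cells and fibrillar collagens at 4231 against 12981. Col4a1 was at 1945 against 906 (2.15-fold) and Col4a2 at 864 against 394 (2.19-fold), so both were higher in nearly the same proportion. Col18a1 was at 429 against 26.2, and the transmembrane Col13a1 at 9.78 against 0.239 (40.9-fold, 95% interval 26.8 to 60.4). Col10a1 was at 5.54 (4.54-fold, 17 UMIs). In the whole iBAT library 11 cells held 33.5% of Col10a1 UMIs, so these 17 may come from few cells, which was not tested. Col1a1 was 2.86-fold lower, at 2179. Col1a1 and Col4a1 were thus counted at nearly the same level in these cells, with a ratio of 1.12. The Ptprc-positive comparison cells of iBAT held 2751 Col1a1 and 453 Col4a1 UMIs, a ratio of 6.07. Stray RNA can therefore add more to Col1a1 than to Col4a1, and its part in the ratio of 1.12 was not tested.

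Of 30 collagen genes with enough counts in these Pecam1 cells, 5 were higher by 2-fold or more, against 12.2% of 13504 genes, and 15 were lower, against 13.8%. Members under 1 CPM in Pdgfra-positive cells, such as Col13a1, entered only through the Pecam1 cells, which favoured their call. Over all 947 Pecam1-positive iBAT cells, 783 of which held Pdgfra, Col13a1 was at 1.89, Col18a1 at 113 and Col4a3 at 0.545, and Col1a1 was at 5157. In iWAT the 364 Pecam1-positive cells, 214 of which held Pdgfra, had collagens at 27775 in sum, with Col18a1 at 34.6, Col9a3 at 1.66 and Col7a1 at 22.8. Of the iWAT single-positive cells (113), 6 of 8 endothelial and 8 of 8 leukocyte markers were raised, so they are not described as endothelial.

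The 171 Myod1 single-positive iBAT cells had 8 of 8 myogenic markers raised (summed 8961 against 70.6 CPM), with 6 of 8 leukocyte markers raised as well (521 against 152), whose part was not tested. Their collagens summed to 2784 CPM beside the 2466 of the comparison cells, and Col1a1 at 804 was below the 967 of those cells and 7.77-fold lower than in Pdgfra-positive cells. Against this low background, Col25a1, a transmembrane collagen that muscle uses when motor axons arrive (chr3:129925150-130393532, plus strand), was at 126 against 0.776 (163-fold, 95% interval 144 to 185) and at 0 in the comparison cells. All 368 Myod1-positive cells, with Col25a1 at 61.8, held 52.3% of the Col25a1 UMIs of the library. Col26a1 was at 16.9 against 0.160 (106-fold, 57 UMIs), Col13a1, which is known from the neuromuscular junction, at 8.31 (34.7-fold, 28 UMIs), Col19a1 at 41.9 against 12.1 (3.46-fold) and Col18a1 at 137.

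Of 32 collagen genes with enough counts in the Myod1 cells, 6 were higher by 2-fold or more, against 14.9% of 13699 genes, and 21 were lower, against 21% of those genes. Col25a1, Col26a1 and Col13a1 were under 1 CPM in Pdgfra-positive cells and entered only through the Myod1 cells, which favoured their call. Col1a2 was at 512, Col3a1 at 266 and Col4a1 at 177 CPM in the single-positive cells. Col4a1 had 596 UMIs among 3367814 in them and 453 among 2845703 in the comparison cells. Its level was thus near that of the comparison cells and is not read as expression. Col1a2 was below its level in the comparison cells. Over all 368 Myod1-positive cells, 187 of which held Pdgfra, Col26a1 was at 9.32 and Col13a1 at 5.46, and Col1a1 was at 3118. The iWAT library had 4 Myod1-positive cells, and the iBAT library 111 Epcam-positive cells in which 6 of 8 epithelial markers were at 0, so neither is described further.

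Col2a1 was concentrated in few cells of iBAT, a description made after its values had been seen. Its UMIs were found in 1430 iBAT cells, and the 150 cells with 10 or more, 0.532% of kept cells, held 43.0% of them. Of these cells 148 were Pdgfra-positive. No iWAT cell reached 10. Beside the remaining kept cells, those 150 held Col4a1 at 159 against 915 CPM, Col15a1 at 16.1 against 185 and Col14a1 at 4.09 against 22.7, while Col8a1 was at 470 against 222 and Col1a1 at 7159 against 6309. Of 10 further genes known from cartilage, Sox9 was at 225 against 151 and Comp at 8.18 against 3.79. Matn3 and Matn4 had 2 UMIs and 1 UMI in these cells, and Acan, Matn1, Hapln1, Cnmd, Snorc and Ucma had 0, at levels of 0.901 CPM or less in the remaining cells. Of the cartilage collagens, Col9a1 and Col9a2 had 0 UMIs and Col9a3 and Col11a2 had 1 UMI each. Among genes known from bone or hypertrophic cartilage, Runx2 was at 65.7 against 62.4 CPM and Sp7 at 3.44 against 4.15. Alpl had 0 UMIs against 5.75 CPM in the remaining cells, and Mmp13 had 1 UMI against 6.88 CPM. Bglap and Ibsp had 0 UMIs against 0.651 and 0.0203 CPM. Of the genes with 2 or fewer UMIs here, Alpl (ratio interval 0 to 0.138) and Mmp13 (0.000793 to 0.175) were lower in these cells. The interval of Acan (0 to 0.884) ended close to 1 and covers counting error only, so no direction is read for it. The intervals of the remaining genes with such counts included a ratio of 1 and give no direction.

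Collagen chains need modifying enzymes, chaperones, proteases and crosslinkers, and meet receptors and other matrix proteins outside the cell. Over 7 lists of such genes, 62 of 69 had a mean of at least 1 CPM, and 4 were higher in iBAT by 2-fold or more, against 5.82% of all genes of that mean, and 9 higher in iWAT, against 6.88%. The median log2 ratio over all genes, beside which the medians of the lists stand, was 0.05. Among 14 enzymes that hydroxylate or glycosylate the chains, 0 were higher in iBAT and 2 higher in iWAT, with a median log2 ratio of -0.27. These were the prolyl 4-hydroxylase subunits P4ha1, at 548 and 243, and P4ha2, at 256 and 88.7 (log2 ratio -1.53, the lowest of the list), and Plod3 was the highest at 169 and 189 (0.17). Within Pdgfra-positive cells, P4ha1 was at 609 and 247 and P4ha2 at 285 and 89.5. Both were thus lower in iBAT there as well.

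None of the 9 folding and export genes passed 2-fold (median log2 ratio -0.25), from Tram2 at -0.72 to Fkbp14 at -0.03. Of 5 crosslinking enzymes, Loxl2 was lower in iBAT, at 790 and 218 CPM (-1.85), Lox was at 2647 and 1509 (-0.81), and Loxl1 had the highest ratio at 0.56. The median of the 5 was 0.28, the ratio of Loxl3. Among 7 tested genes of propeptide cleavage (median 0.42), the procollagen protease Adamts2 was higher in iBAT, at 37.9 and 92.0 (1.28), and Adamts14 had the lowest ratio at -0.81. Of 8 receptor genes none passed 2-fold (median 0.07), with Ddr2, a kinase that binds fibrillar collagen, at 123 and 233 (0.93) and Itgb1 at -0.72. Thus P4ha1, P4ha2 and Loxl2 were lower and Adamts2 was higher in iBAT by 2-fold or more.

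Among 6 fibril-binding proteoglycans, Prelp was higher in iBAT, at 6.57 and 100 CPM (log2 ratio 3.93), as was Fmod, at 4.05 and 24.8 (2.62). Lum was lower, at 11.0 and 3.88, and so was Ogn, at 119 and 58.8 (-1.01). Among laminin, nidogen and perlecan genes, Nid2 was higher in iBAT, at 9.02 and 47.3 (2.39), and Lama3 (8.44 and 0.298, -4.82), Lamb3 (-2.92) and Lama5 (-2.05) were lower. Within Pdgfra-positive cells, Lama3 was at 2.34 and 0.289 and Lamb3 at 3.31 and 1.36, with no comparison-cell level taken for either. In iWAT, 1810 of the 17460 Pdgfra-positive cells also held Epcam, and in iBAT 101 of 25927, and the summed epithelial markers in iWAT were 106 CPM in Pdgfra-positive cells and 17.04 in those without another class marker. Their part in the laminin values was not tested. Lama5 was at 2.73 and 1.68 in Pdgfra-positive cells, short of 2-fold.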

How the data were processed

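Cultured stromal vascular cells of iWAT and iBAT were profiled with the BD Rhapsody whole-transcriptome assay, with 10000 cells per treatment loaded on a cartridge for 40000. The authors processed the reads with the assay maker's online pipeline (version not given in the sources used here), and the submitters' processing notes name mm39 and Seurat 5.0.0. The deposited values are raw UMI counts per gene and cell, with no normalization. Counts were summed over the kept cells of a library and divided by their total UMIs, per 1000000 (CPM). Features entered a comparison at a mean of 1 CPM over its 2 sides, and a call is a ratio of 2 or more. A feature under 1 CPM on 1 side could enter only through its level on the other side, which favours a call. No test was run. The members and lists were chosen with earlier results of these data known. The text names every collagen gene with a mean of at least 10, the 6 highest and 6 lowest log2 ratios, and, for each kind of cell with 50 or more single-positive cells, the 3 highest members and the 3 highest ratios. No doublet caller was run, and the 8 barcode numbers found in both libraries were kept. Python 3.11.15, numpy 2.4.6, scipy 1.17.1, pandas 2.3.3 and matplotlib 3.10.9 were used. The ratio and interval code was tested on simulated data. Values of 1 gene of the partner lists are not reported here.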

Additional observations from a re-analysis of the deposited data

How the results depend on the processing

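No paired analysis was possible because each depot has 1 library and no result comes from a test. The count of collagen genes higher in iBAT by 2-fold or more, 4 in the report, was 1 at a mean of at least 10 CPM and 7 with no filter beyond 3 UMIs in a library, and the count higher in iWAT went from 6 to 10 with no filter. The log2 ratio of fibrillar collagens, -1.0564, was -1.0420 with over 500 genes, under 15% mitochondrial UMIs and no upper limit, -1.0740 over every barcode, -1.2181 in Pdgfra-positive cells, -1.1987 in cells without another class marker, -1.1073 with median-of-ratios scaling, -1.0871 with TMM scaling and -1.0094 as a mean over cells. The ratio of basement membrane collagens, -0.0283, was 0.0008, -0.0405, -0.1485, -0.1608, -0.0791, -0.0589 and -0.0031 in the same order, and 0.0109 for type IV chains alone. Its sign therefore depends on these choices. Col4a6 had log2 ratios of 0.0102 in Pdgfra-positive cells and 0.2628 in cells without another class marker, against -1.02 over all cells. The cause of these shifts was not tested. The sets of Epcam- and Sox10-positive cells without Pdgfra or Epcam UMIs were added after seeing the data. Intervals cover counting error only, and the spread between mice or cultures is unknown.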
